A study of Mus musculus with 16 samples.

Results

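The 9 genes described here mark microglia and other macrophages: Cd68, Aif1, Csf1r, Cx3cr1, Itgam, Tyrobp, Trem2, Ctss and Ptprc. They were chosen by name, as every probe of the array files that is not a control and carries one of these gene names. That gave 18 of the 41174 probes and 9 of the 27962 gene names on the array. RNA from the lumbar spinal cord of male mice was hybridised to 16 arrays, 4 for each combination of genotype and age. The SOD1G93A mice, a model of amyotrophic lateral sclerosis on a B6SJL background, carry a mutant human SOD1 transgene that is not restricted to one cell type. The wild-type (WT) mice lack the transgene, and both genotypes were taken at 40 and at 80 days of age, both preclinical. Each array held the cord in Cy3 and a common reference in Cy5, a pool of neonatal heart, kidney and liver from both genotypes. The dyes were never swapped, so a level below is log2 of cord over reference and a difference between groups is free of the reference.

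Microglia are the resident macrophages of the central nervous system. They depend on signalling through CSF1R, the receptor for the growth factors CSF1 and IL34, and they read neuronal fractalkine through CX3CR1. TREM2 binds lipids and apolipoproteins and signals through the adaptor TYROBP (DAP12), which also serves other activating receptors. ITGAM (CD11b) is the alpha chain of complement receptor 3, and PTPRC (CD45) is the phosphatase found on all white blood cells. AIF1 (IBA1) is an actin-bundling protein and the usual stain for microglia, CD68 is a glycoprotein of the lysosomal membrane, and CTSS (cathepsin S) is a lysosomal protease. In motor neuron disease, microglia are known to multiply and to take up a reactive state as the disease advances.

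Of the 18 probes, 13 were well above background in Cy3 on enough arrays to be tested, and these covered all 9 genes. Another 5 were not tested, and 4 of them, 1 for Csf1r and 3 for Ptprc, were well above background in Cy3 on none of the 16 arrays. Aif1, Csf1r, Itgam and Trem2 each had more than 1 tested probe, and the probe with the higher Cy3 signal stands for the gene below unless the other is named. The probe for Tyrobp and one probe each for Trem2 and Aif1 are shown because the deposited mm7 positions spread their 60 bases over a longer stretch of genome, 1728, 137 and 246 bases, so that they read spliced RNA.
Tyrobp A_51_P261517 (chr7:27358831-27360558, plus strand): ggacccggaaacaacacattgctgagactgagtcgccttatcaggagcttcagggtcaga
Trem2 A_51_P269549 (chr17:46496563-46496699, plus strand): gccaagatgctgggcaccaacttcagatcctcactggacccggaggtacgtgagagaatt
Aif1 A_52_P2754 (chr17:33268568-33268813, minus strand): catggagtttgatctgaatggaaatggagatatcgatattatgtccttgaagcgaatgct

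Macrophage genes are commonly driven by PU.1, an Ets-family factor. The letters GAGGAA, a core of its motif, were searched on both strands in RefSeq promoters of GRCm38.p6, each running from 250 bases before to 50 bases after a gene's start. They occurred in 28.3% of 32851 promoters. They occurred in the promoters of 6 of the 7 member genes found in that table, namely Aif1, Cd68, Ctss, Itgam, Ptprc and Trem2, and not in that of Cx3cr1. The longer GAGGAAGT occurred in 3.2% of promoters and in that of Ctss alone among the 7. The letters were chosen after these promoters had been searched, and a match is a description of sequence, not a binding site. The stretches around a match, with the match or its reverse complement in capitals, show how the sites differ in their flanks among genes whose RNA levels correlated across these arrays.
Ctss (chr3:95526602-95526647, plus strand): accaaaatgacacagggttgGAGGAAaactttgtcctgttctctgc
Cd68 (chr11:69666370-69666415, minus strand): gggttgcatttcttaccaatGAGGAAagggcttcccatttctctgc
Itgam (chr7:128062536-128062581, plus strand): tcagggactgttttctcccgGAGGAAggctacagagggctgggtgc
Ptprc (chr1:138175438-138175483, minus strand): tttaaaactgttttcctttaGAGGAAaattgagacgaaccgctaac
Trem2 (chr17:48346341-48346386, plus strand): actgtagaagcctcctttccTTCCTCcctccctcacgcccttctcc
The match shown lay 164 bases before the start of Ctss, 225 before that of Cd68, 84 before that of Itgam, 158 before that of Ptprc and 40 before that of Trem2. Further matches in Ctss, Cd68 and Itgam, all on the other strand, and that of Aif1 are not shown. The match shown for Ctss is not the longer GAGGAAGT.

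Across the arrays, 46.1% to 55.3% of probes were well above background in Cy3 and a median of 65.7% in Cy5, and the number of arrays, 4 a group, limits the precision. Replicate n of all 4 groups lay on slide n, and each group had its own place on every slide, so place and group cannot be told apart. At 80 days 2 arrays stood apart from the other 6 for the macrophage genes, WT replicate 3 and SOD1G93A replicate 4, and the results for the 9 genes at this age are given with and without them. The mouse Sod1 probes say nothing of the human transgene, so the genotype labels were not checked by it.

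At 40 days none of the 9 genes differed between SOD1G93A and WT cord. The genes' differences ran from -0.14 to 0.036 on the log2 scale with a median of -0.0083, and 3 of the 9 were above 0. Over all probes tested the median difference was 0.0029, and 4.47% passed limma's test at an unadjusted p under 0.05, the threshold of the study's methods, against 0 of the 9 genes. All Benjamini-Hochberg adjusted p-values of the 9 in limma were at least 0.998, and the smallest exact permutation p was 0.286, for Itgam. In whole tissue, fewer cells of a type and less RNA per cell cannot be told apart.

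The receptor Trem2 and its adaptor Tyrobp overlapped between the genotypes at 40 days, and Tyrobp had the largest SE of the 9 at this age. Trem2 read 1.73, 1.73, 1.6 and 1.93 in WT replicates 1 to 4 and 1.77, 1.85, 1.70 and 1.71 in SOD1G93A replicates 1 to 4. Tyrobp read -0.63, -0.64, -0.41 and -0.98 in WT and -0.95, -0.70, -0.77 and -0.69 in SOD1G93A. The groups overlapped for both genes, and the WT arrays held both the highest and the lowest Tyrobp level. The difference, SOD1G93A minus WT, was 0.013 ± 0.0753 (SE, n = 4 a group, exact permutation p = 0.886) for Trem2 and -0.11 ± 0.113 (p = 0.343) for Tyrobp. The lysosomal genes lay as close. Cd68 differed by less than 0.01 in size, with an SE of 0.0729, and Ctss by -0.055 ± 0.110. For the surface receptors the differences were -0.0083 ± 0.0877 for Csf1r, 0.036 ± 0.0840 for Cx3cr1, -0.14 ± 0.0956 for Itgam and -0.11 ± 0.0744 for Ptprc. That of Aif1 was 0.0087 ± 0.0560. None of the 9 genes had groups that did not overlap, against 2.83% of all probes tested. Single WT arrays bore on 3 of these genes. Itgam was lower in SOD1G93A without WT replicate 1 (-0.23 ± 0.0787, SE), past the unadjusted threshold of 0.05 in limma, as were 1087 of 21338 probes. Its second probe, with all arrays kept, went the other way, at 0.15 ± 0.0759 (exact permutation p = 0.143). Tyrobp (-0.22 ± 0.0846) and Ptprc (-0.16 ± 0.0681) were lower without WT replicate 4, past the same threshold. Calls over all probes then rose from 953 to 1894 of 21338.

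At 80 days none of the 9 genes differed between the genotypes either, and the errors were much wider. The differences ran from -0.049 to 0.29 with a median of 0.0995, and 8 of the 9 were above 0, where the median over all probes was -0.0012. This tally turned with single arrays: without SOD1G93A replicate 4 the median was -0.20 with 0 of 9 above 0, and without WT replicate 3 it was 0.32 with 9 of 9 above 0. With array weights it was -0.021 with 3 of 9 above 0, and without WT replicate 1 -0.012 with 4 of 9. Of all probes tested 6.86% passed at an unadjusted p under 0.05, against 0 of the 9 genes, whose adjusted p-values in limma ran from 0.888 to 0.985 and exact permutation p-values from 0.514 upwards. None of the 9 had groups that did not overlap, against 4.31% of all probes. Their standard errors ran from 0.107 to 0.478, where the median over all probes was 0.0790. For 8 of the 9 genes the SE lay at or above the 97.8th percentile of all probes at this age, Itgam being the exception at 80.9, while at 40 days the 9 lay between 13.3 and 88.3.

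**Figure D1:**
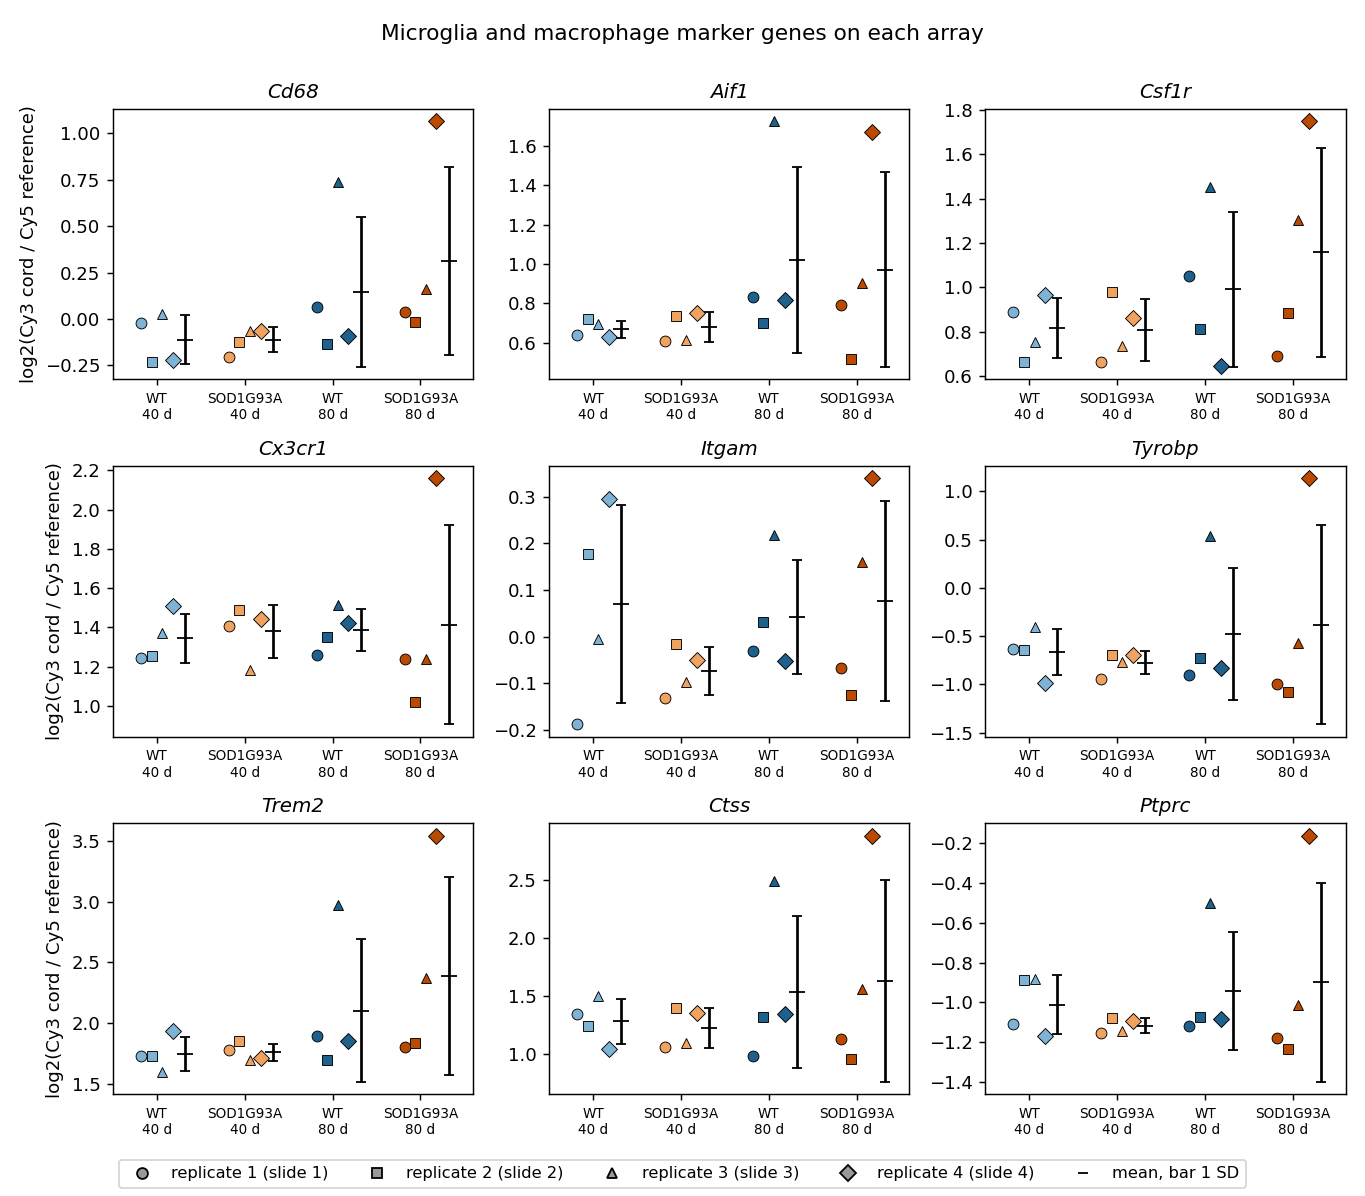
Level of each of the 9 genes on every array (log2 of cord over reference, vertical axis) by genotype and age, with the mean and SD of 4 arrays per group. At 80 days WT replicate 3 and SOD1G93A replicate 4 lie above the other 6 arrays for 9 of 9 genes, as for Tyrobp at 0.54 and 1.13 against -1.08 to -0.57.

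Tyrobp showed the widest spread of the 9. Its levels in WT replicates 1 to 4 were -0.90, -0.73, 0.54 and -0.83, and in SOD1G93A replicates 1 to 4 they were -1.0, -1.08, -0.57 and 1.13. WT replicate 3 and SOD1G93A replicate 4 were the only arrays of the 16 on which the normalized log2 ratio of Tyrobp was above 0. In scanner units Cy3 was below Cy5 there too, 457 against 3502 and 890.5 against 4138.5. The groups overlapped. The group means were -0.48 ± 0.685 in WT and -0.38 ± 1.03 in SOD1G93A (SD, n = 4), a difference of 0.10 ± 0.478 (SE) with a 95% interval of -0.96 to 1.16 (adjusted p = 0.977 in limma, exact permutation p = 0.83). Without the 2 arrays it was -0.063 ± 0.129 (adjusted p = 0.890 in limma, 3 arrays a group). With 4 arrays a group the two-sided exact permutation test cannot give a p below 0.0286.

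Trem2, the receptor that signals through Tyrobp, had the largest difference of the 9. It read 1.90, 1.69, 2.97 and 1.85 in WT and 1.80, 1.83, 2.37 and 3.55 in SOD1G93A. The same pair of arrays was highest in each group, and SOD1G93A replicate 3 came next. The difference was 0.29 ± 0.389 (SE) with an interval of -0.58 to 1.15 (adjusted p = 0.888 in limma, exact permutation p = 0.60). Without the 2 arrays it was 0.19 ± 0.147 (adjusted p = 0.692 in limma). The second Trem2 probe, the one printed above, read 1.66 on WT replicate 3 and 2.40 on SOD1G93A replicate 4, again the highest of each group.

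The lysosomal genes followed the same order. Ctss read 0.98, 1.32, 2.49 and 1.35 in WT and 1.13, 0.96, 1.57 and 2.89 in SOD1G93A. Cd68 read 0.064, -0.13, 0.74 and -0.091 in WT and 0.037, -0.018, 0.16 and 1.07 in SOD1G93A. For both genes 3 of 4 arrays in each group lay close together and 1 lay far above them, WT replicate 3 or SOD1G93A replicate 4. The difference was 0.0995 ± 0.422 (SE, exact permutation p = 0.743) for Ctss, with an interval of -0.84 to 1.04, and 0.17 ± 0.255 (p = 0.514) for Cd68, with an interval of -0.40 to 0.73. Without the 2 arrays Ctss differed by less than 0.01 and Cd68 by 0.11 ± 0.0828 (adjusted p = 0.676 in limma).

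Of the 6 other arrays, SOD1G93A replicate 3 was the highest for 8 of the 9 genes, all but Cx3cr1. Among the remaining surface and cytoskeletal genes the pair of arrays stood out by different amounts. Aif1 read 0.83, 0.70, 1.72 and 0.82 in WT and 0.79, 0.52, 0.90 and 1.67 in SOD1G93A. Ptprc read -1.12, -1.07, -0.50 and -1.08 in WT and -1.18, -1.24, -1.01 and -0.16 in SOD1G93A. Both genes had 3 arrays within a narrow band in each group and 1 above it. Csf1r read 1.05, 0.81, 1.45 and 0.65 in WT and 0.69, 0.89, 1.30 and 1.75 in SOD1G93A. Csf1r was more evenly spread, with SOD1G93A replicate 3 close to the WT array. Cx3cr1 read 1.26, 1.35, 1.51 and 1.42 in WT and 1.24, 1.02, 1.24 and 2.16 in SOD1G93A. Itgam read -0.030, 0.032, 0.22 and -0.051 in WT and -0.068, -0.13, 0.16 and 0.34 in SOD1G93A. For Cx3cr1 the WT array was barely above its group, by 0.091, and the SOD1G93A array far above its own. In all 5 genes the genotypes overlapped.

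The differences of these 5 genes were small beside their errors. That of Aif1 was -0.049 ± 0.268 (SE), with an interval of -0.64 to 0.55. That of Ptprc was 0.046 ± 0.229 (-0.46 to 0.56), that of Csf1r 0.17 ± 0.230 (-0.35 to 0.68) and that of Cx3cr1 0.028 ± 0.205 (-0.43 to 0.48). Itgam had the narrowest interval, -0.20 to 0.27 around 0.034 ± 0.107. Without the 2 arrays the differences were -0.048 ± 0.104 for Aif1, -0.052 ± 0.0777 for Ptprc, 0.12 ± 0.160 for Csf1r and 0.0053 ± 0.0880 for Itgam. The upper bounds, 1.16 on the log2 scale for Tyrobp and 0.27 for Itgam, give the largest rise in the normalized ratio that each gene's interval leaves possible. Itgam read only 52 to 73 units in Cy3 at 80 days and an offset of 50 was added, so its bound is not one on its RNA. The call of none was the same without the 2 arrays, when 9% of all probes passed and the genes' differences had a median of 0.000925 with 5 of 9 above 0. Cx3cr1 then had the smallest p, with a difference of -0.18 ± 0.0862 (adjusted p = 0.576 in limma). With SOD1G93A replicate 4 alone left out its difference was -0.22 ± 0.0860, lower in SOD1G93A at the unadjusted threshold. This was the one genotype call among the 9 at 80 days with a single array left out, and 1664 of 21603 probes passed in that setting.

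**Figure D2:**
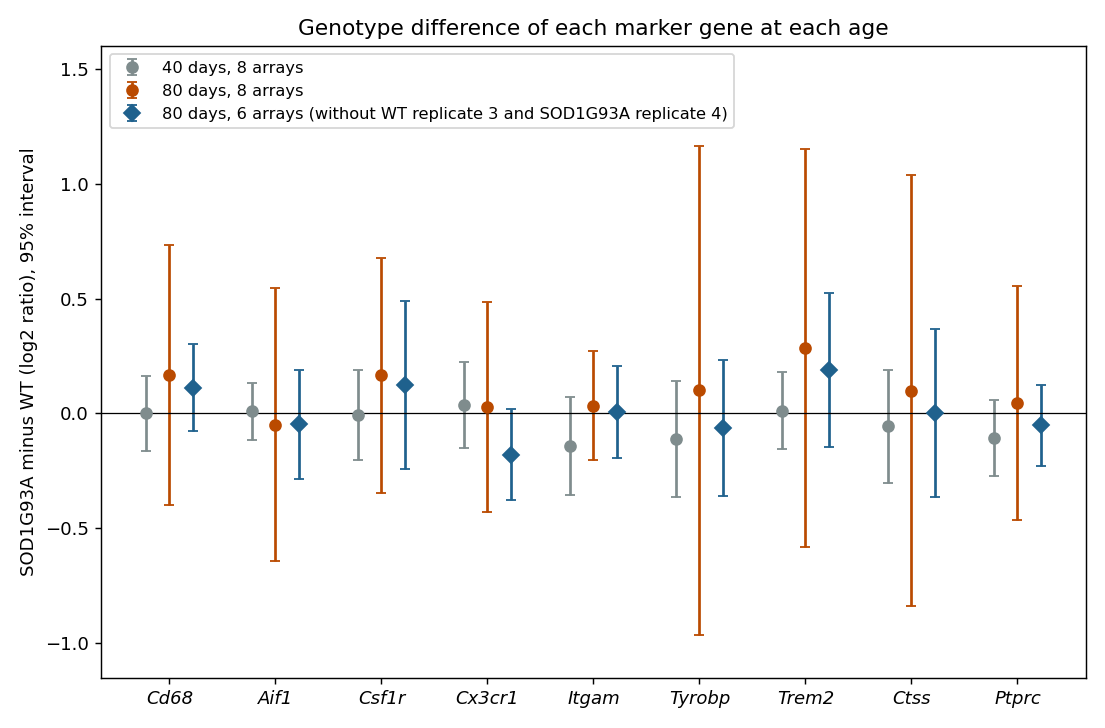
Difference between SOD1G93A and WT (log2 scale, vertical axis, with 95% intervals) for each gene at 40 days, at 80 days and at 80 days without WT replicate 3 and SOD1G93A replicate 4. All intervals include 0, and those at 80 days are widest for Tyrobp, from -0.96 to 1.16.

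The 2 arrays were singled out after the 9 genes were seen to read high on them, and the 9 genes correlate across arrays. The counts that follow therefore describe the pair and are no test of it. Both arrays were highest of their group for 9 of 9 genes. Over all probes tested they were highest of their group for 24.5% (WT replicate 3) and 26.0% (SOD1G93A replicate 4), close to an even share. Each lay above the other 6 arrays of 80 days for 9 of 9 genes by the probe that stands for the gene, where 15.5% and 15.8% of all probes did so. The second probes of Aif1 and Trem2 gave the same order, and those of Csf1r and Itgam did not. The second Csf1r probe read 1.10 on WT replicate 3, below 1.34 on SOD1G93A replicate 3. The second Itgam probe read 0.214 on SOD1G93A replicate 4, below 0.225 on WT replicate 2. WT replicate 3 exceeded the next array of its group by 0.091 (Cx3cr1) to 1.27 (Tyrobp), with a median of 0.68. SOD1G93A replicate 4 did so by 0.18 (Itgam) to 1.71 (Tyrobp), with a median of 0.91. For Tyrobp these gaps were 2.41-fold and 3.26-fold. By Dixon's gap criterion, a gap larger than chance gives in about 1 of 20 groups of 4, WT replicate 3 was called high for 4 of 9 genes (Aif1, Ptprc, Trem2 and Tyrobp) against 0.836% of all probes. SOD1G93A replicate 4 was called high for 1 of 9 (Cd68) against 1.19%.

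The rise lay in the cord channel. The scanner's median Cy3 signal of Tyrobp was 457 units on WT replicate 3 and 890.5 on SOD1G93A replicate 4, and 157 to 260 on the other arrays of 80 days. For Ctss it was 3653 and 6006 against 1583 to 2148, and for Trem2 572 and 1175.5 against 291.5 to 450. By the probe that stands for the gene, the reference level was within the range of the other 14 arrays for 9 of 9 genes on WT replicate 3. On SOD1G93A replicate 4 it was so for 8 of 9, Aif1 being above it there. The second probes of Trem2 (log2 Cy5 of 7.02 against at most 6.75), Csf1r (7.42 against 7.31) and Aif1 (7.33 against 7.29) also lay above that range on SOD1G93A replicate 4. The second Itgam probe lay within it. Ptprc was printed at 10 spots of every array. The SD among an array's spots of the log2 ratio, background subtracted but not normalized, ran from 0.084 to 0.20. On that scale WT replicate 3 averaged -4.23 against -5.23 to -5.16 in the rest of its group. SOD1G93A replicate 4 averaged -3.47 against -5.37 to -4.96. After normalization, a different scale, the gaps for Ptprc were 0.57 and 0.85. The spread among spots leaves out that between mice and between labellings, so it says nothing of how samples vary. Both arrays were the highest of their groups, and above the other 6, for 9 of 9 genes in each of 9 ways of reading the signals, the study's own processed values among them. SOD1G93A replicate 4 also held the most spots with an unusually bright local background, 63 in Cy3. The part of tissue taken, the mouse and the handling of these samples were not tested.

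Within slides the differences between genotypes had opposite signs on the slides of the 2 arrays. For Tyrobp at 80 days they were -0.097, -0.35, -1.11 and 1.97 on slides 1 to 4. For Trem2 they were -0.094, 0.14, -0.60 and 1.70, and for Ctss 0.15, -0.36, -0.93 and 1.54. For these genes slides 3 and 4, which hold WT replicate 3 and SOD1G93A replicate 4, gave values far from slides 1 and 2. Their opposite directions follow from the high levels already given for the 2 arrays. For Csf1r, Cx3cr1 and Itgam slide 3 lay between slides 1 and 2, as for Csf1r at -0.15 against -0.36 and 0.073. Each slide holds 1 array of a group, so no test was possible within a slide.

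The genotype effect at 80 days was not shown to differ from that at 40 days. The difference between these effects, fitted over all 16 arrays, ran to a median of 0.17 with 7 of 9 genes above 0, against 0.0002 over all probes, and 0 of 9 genes passed where 6.68% of all probes did. The adjusted p-values of the 9 in limma ran from 0.868 (Itgam) to 0.996 (Cx3cr1). Without the 2 arrays of 80 days the median was 0.056 with 7 of 9 above 0. Without SOD1G93A replicate 4 alone it was -0.11 with 1 of 9 above 0, and without WT replicate 3 alone 0.33 with 9 of 9.

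Between 40 and 80 days the 9 genes did not pass the test in either genotype. In WT the difference, 80 minus 40 days, had a median of 0.18 with 8 of 9 genes above 0, and 0 of 9 passed against 15.3% of all probes. Without WT replicate 3 of 80 days the median was 0.0004 with 5 of 9 above 0, so the difference in WT rested on that array. The smallest p in WT was that of Aif1 (0.35 ± 0.213, SE, adjusted p = 0.460 in limma, exact permutation p = 0.0571), and none of the 9 had groups that did not overlap, against 7.77% of all probes. In SOD1G93A the median was 0.35 with 9 of 9 above 0, and again 0 of 9 passed against 17.2% of all probes. Without SOD1G93A replicate 4 of 80 days the median was 0.059 with 5 of 9 above 0. The leading genes there were Cd68 (0.42 ± 0.207, adjusted p = 0.306 in limma), Trem2 (0.63 ± 0.312, adjusted p = 0.313) and Csf1r (0.35 ± 0.192, adjusted p = 0.368). Over all probes the median differences with age were 0.015 and 0.0058.

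Cd68 was the only one of the 9 whose SOD1G93A arrays of 40 and 80 days did not overlap (exact permutation p = 0.0286, the smallest possible), against 12.6% of all probes. Its levels at 40 days were -0.20, -0.12, -0.06 and -0.06, all below the lowest of 80 days, -0.018. The second probes of Csf1r and Trem2 did pass at the unadjusted threshold in SOD1G93A, with differences of 0.36 ± 0.166 (adjusted p = 0.281 in limma) and 0.57 ± 0.229 (adjusted p = 0.223). Without WT replicate 3 and SOD1G93A replicate 4 of 80 days, 2 of 9 genes passed, against 19.1% of all probes. Cd68 was then higher at 80 days by 0.17 ± 0.0783 and Cx3cr1 lower, at -0.21 ± 0.0885. With single SOD1G93A arrays of 80 days left out the number passing ran from 0 to 3. It was 3 without replicate 1 or without replicate 2 (Cd68, Csf1r and Trem2, all higher at 80 days), fits that keep the high replicate 4. It was 1 without replicate 4 (Cx3cr1, lower). Over all probes 3664, 3159 and 3910 of 21507 passed without replicates 1, 2 and 4 in turn.

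In level, 5 of the 9 genes stood above the neonatal reference pool on all 16 arrays: Aif1, Csf1r, Cx3cr1, Trem2 and Ctss. Ptprc lay below it on all 16 arrays and Tyrobp on 14 of 16, while Cd68 and Itgam lay above on 6 and below on 10. Each of these ratios depends on how much heart, kidney and liver express the gene. It also depends on the normalization and on the dyes, which were never swapped. The ratios thus do not order the genes within the cord.

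The levels of the 9 genes correlated across the arrays. With group means taken off, Pearson's r between genes over the 16 arrays ran from 0.55 to 0.98 over the 36 pairs, with a median of 0.83. Without WT replicate 3 and SOD1G93A replicate 4 of 80 days it ran from -0.30 to 0.90 with a median of 0.39, and 11 of 36 pairs stayed above 0.5. Tyrobp and Ctss correlated at 0.98 with and 0.90 without the 2 arrays, Tyrobp and Ptprc at 0.98 and 0.83, and Csf1r and Trem2 at 0.91 and 0.76. Most of the closeness among the 9 thus rests on those arrays, while these 3 pairs held without them. Different probes of a gene correlated at 0.92 for Aif1, 0.90 for Csf1r and 0.96 for Trem2, and at 0.75, 0.90 and 0.90 without the 2 arrays. The 2 Itgam probes, both dim, correlated at 0.18 and -0.092, so the Itgam values were not borne out by a second probe. All points share an array and its normalization, and the values are descriptions.

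**Figure D3:**
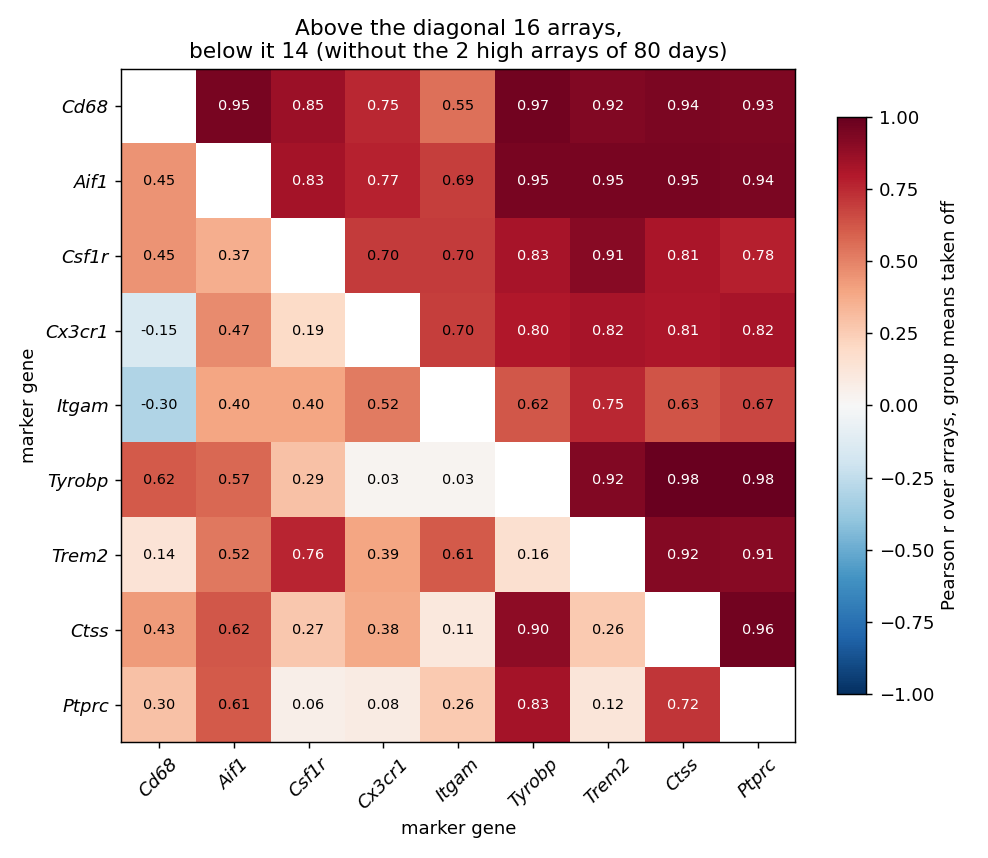
Pearson's r between each pair of the 9 genes after group means were taken off, over all 16 arrays (above the diagonal) and over the 14 arrays without WT replicate 3 and SOD1G93A replicate 4 of 80 days (below it). The median falls from 0.83 to 0.39, while Tyrobp and Ctss stay at 0.90.

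Genes near to each of the 9 in pattern were found by Pearson's r over the 16 arrays with group means off, among 15430 genes. Near to Ctss were Mpeg1 (0.99, and 0.95 without the 2 arrays), a pore-forming macrophage protein, and Cd300c2 (0.99 and 0.91). Near to Tyrobp were AU020206 (0.99 and 0.95) and Bcl2a1b (0.99 and 0.82). Nearest to Ptprc were Pycard, the inflammasome adaptor ASC, Syngr1 and Bcl2a1b, and for Aif1 Cd300c2, Ctsd, the protease cathepsin D, and Tubb6. For Cd68 they were Havcr2, Ctsd and Golm1, and for Trem2 Ccl4, Vav1 and Pbxip1. Csf1r was nearest to Itgb5, an integrin chain (0.96, and 0.91 without), A530050D06Rik and Ascc2. Cx3cr1 was nearest to Smc5, Laptm5 and Snx20, and Itgam to Ptpn6, Naip5 and AK033818. For Trem2 the r with Ccl4 dropped from 0.97 to 0.64 without the 2 arrays and for Cx3cr1 the r with Laptm5 from 0.94 to 0.61.

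Lists of related genes showed which neighbours of the 9 moved with the 2 arrays of 80 days. The disease-associated microglia list holds some genes that the Trem2 and Tyrobp pathway is known to induce. As the median deviation from the mean over all arrays, this list stood at 0.47 on WT replicate 3 and 0.76 on SOD1G93A replicate 4. The other 14 arrays ran from -0.19 to 0.11. Of its 20 genes measured, 14 and 18 lay above the other 6 arrays of 80 days. Other macrophage surface and granule genes stood at 0.43 and 0.65, with 20 and 21 of 22 above. The Tyrobp and Fc receptor signalling list stood at 0.30 and 0.55, with 14 and 15 of 16 above. Homeostatic microglia genes stood at 0.28 and 0.34, with 11 and 12 of 17 above, ligands and partners of the 9 at 0.31 and 0.38, with 7 and 7 of 10, and myeloid transcription factors at 0.18 and 0.37, with 6 and 7 of 11. The 9 genes themselves stood at 0.68 and 0.84 against -0.24 to 0.10.

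Members of the same lists did not all move. Clec7a, a receptor of reactive microglia, read -0.85 and -0.13 on the pair of arrays against -2.64 to -1.96 on the other 6 arrays of 80 days. P2ry12, the purinergic receptor of resting microglia, read 0.86 and 1.49 against 0.98 to 1.46, and Tmem119, a microglial surface protein, -0.72 and -0.78 against -1.27 to -0.77. P2ry12 was thus lowest of the 8 on WT replicate 3. These 3 genes were chosen after their values were seen.

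By their medians, no marker list of other cells lay above the other 14 arrays on both of the pair, and those of astrocytes and oligodendrocytes lay outside them on WT replicate 3. Genes of border macrophages stood at 0.042 on WT replicate 3 and -0.085 on SOD1G93A replicate 4, with 1 and 2 of 9 above the other 6 arrays. Monocyte and neutrophil genes stood at -0.19 and -0.18, with 3 and 2 of 11, and lymphocyte genes at -0.042 and -0.076, with 0 and 0 of 6. All these lay within the range of the other 14 arrays, as did blood at 0.20 and -0.093 and neurons at -0.050 and -0.098. Astrocyte genes stood at 0.12 on WT replicate 3, above the other 14 arrays (-0.12 to 0.066), and at 0.030 on SOD1G93A replicate 4, with 6 and 5 of 13 above the other 6 arrays, where 15.5% and 15.8% of all probes were. Oligodendrocyte genes stood at -0.37 on WT replicate 3, below the other 14 arrays (-0.28 to 0.45), and at -0.089 on SOD1G93A replicate 4. Only 6 of the 19 lymphocyte genes and 11 of the 17 monocyte and neutrophil genes on the array were measured well enough to enter. The share of these cells in the rise of the 9 genes was not tested.

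**Figure D4:**
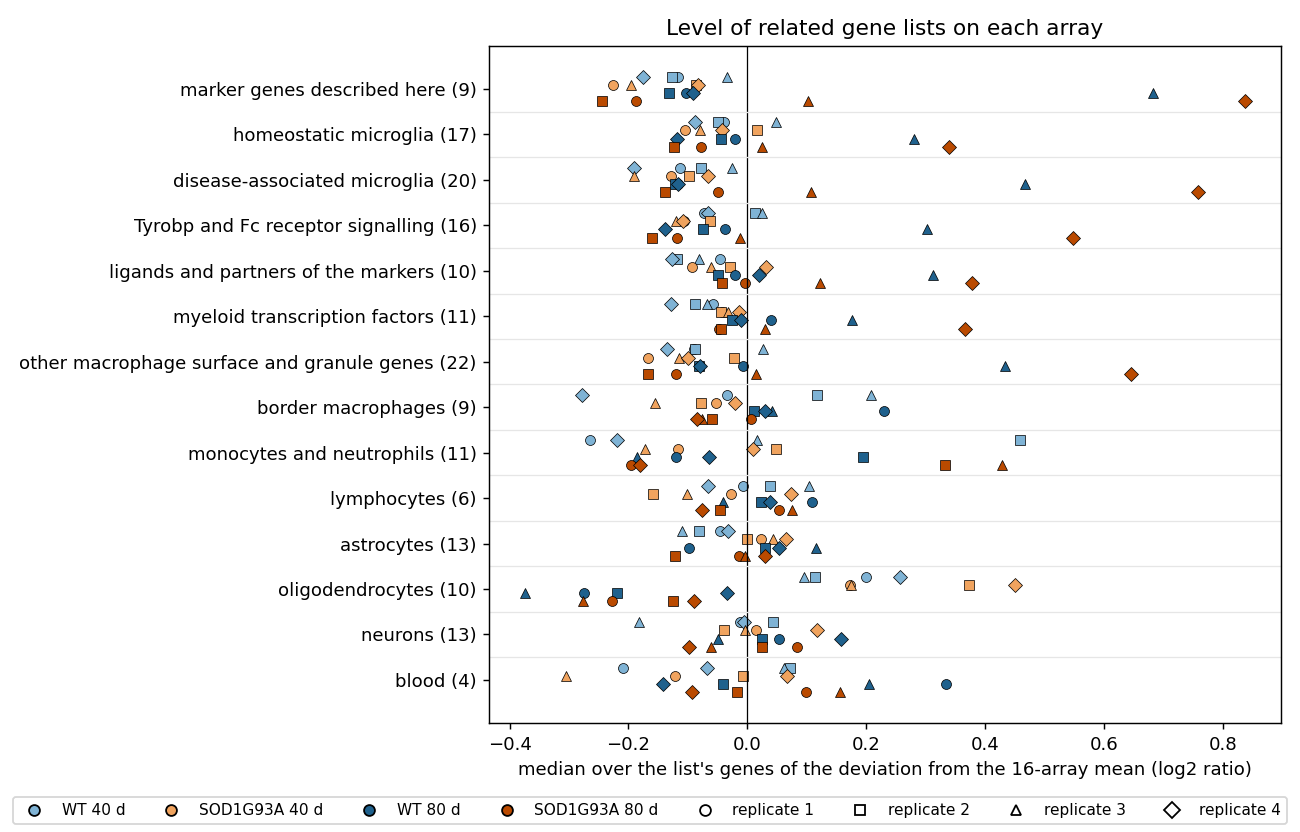
Median deviation from the mean over all arrays (log2 scale, horizontal axis) of each gene list on each of the 16 arrays, 1 point per array, coloured by group and shaped by replicate, with the number of genes in brackets. The microglial lists stand highest on WT replicate 3 and SOD1G93A replicate 4 of 80 days, as the disease-associated list at 0.47 and 0.76, while monocyte and neutrophil genes stand at -0.19 and -0.18.

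Between genotypes, genes of these lists passed limma's test at an unadjusted p under 0.05 at both ages, and none at an adjusted p under 0.05. At 40 days 15 of 150 passed, where 4.47% of all probes did. The count was 27 without WT replicate 4, when 1894 of 21338 probes passed in place of 953. It was 4 with local backgrounds kept as deposited (246 probes), 5 with the spread of 16 arrays (939 probes) and 8 with the authors' values (538 probes). The C1q chains C1qb (0.29 ± 0.107, SE) and C1qc (0.35 ± 0.125), which start the classical complement cascade, were higher in SOD1G93A, while C1qa was not called (0.037 ± 0.143). Adgre1 (-0.25 ± 0.102), the F4/80 antigen, Clec5a (-0.25 ± 0.0722), a receptor that uses Tyrobp, and the purinergic receptor P2ry13 (-0.30 ± 0.105) were lower, as was Plcg2. Cd44, the hyaluronan receptor, was higher by 0.19 ± 0.0607, and all of these had an adjusted p of 0.998 in limma. The macrophage lists thus held calls in both directions. Beside them, 4 of 13 astrocyte genes (Gfap, S100b, Slc1a2 and Slc1a3) and 3 of 10 oligodendrocyte genes (Mbp and Cldn11 among them) were higher, against the same 4.47% called in either direction.

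At 80 days 6 of 156 passed, a share below the 6.86% of all probes. With single arrays left out the count ran from 1, without SOD1G93A replicate 3 (974 of 21603 probes), to 13, without SOD1G93A replicate 4 (1664 probes). None of the 6 belonged to the homeostatic, disease-associated, Tyrobp signalling, ligand or other macrophage lists. Pf4, a chemokine used as a marker of border macrophages, was lower (-0.26 ± 0.100, SE), as was the transcription factor Maf (-0.17 ± 0.0691), each with an adjusted p of 0.708 in limma. The other calls were in Slc1a2 and Syt1, lower, and the myelin genes Cnp and Mog, higher. The disease-associated list had a median difference of 0.14 with 16 of 20 genes above 0, and without the 2 arrays 0.073 with 12 of 20. The homeostatic list had a median of 0.030 with 10 of 17 above 0, and -0.014 with 6 of 17 without them.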

How the data were processed

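RNA of 16 lumbar spinal cords (Cy3) was hybridised beside a common reference (Cy5) to whole-genome mouse oligonucleotide arrays. Per the labels, the authors read the scans with Agilent Feature Extraction 9.5.3.1, and the deposited files hold the scanner's signal intensity of each spot in both channels, not yet normalized. The study's methods name limma and keep 4 arrays a group after a quality check. A second deposited table holds the authors' processed log2 Cy3 values, which share a distribution within an age and differ between ages. It was used only within an age, and the steps behind its scale were not traced further.

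Median signals of the 45018 spots were used. A local background was set to the array's median where the spot lay over 20 units below it. Then followed normexp correction (offset 50), loess within arrays with controls at weight 0, and Aquantile between arrays. Control and outlier spots were left out and spots of a probe averaged. A probe was tested where 3 or more of the 4 arrays in some group had it well above background in Cy3 and every group held 2 or more values, with lmFit and eBayes of limma 3.58.1 in R 4.3.3. Calls are at an unadjusted two-sided p under 0.05, with Benjamini-Hochberg values over all probes. Genotypes were compared on the 8 arrays of an age, and ages and interactions on all 16. The fit was tested on simulated data. Exact permutation tests ran over arrays, with 4900 relabellings for the interaction. Labels call the arrays biological replicates.

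The genes named are the 9 members, the list genes called at either age, and the 3 genes nearest to each member in pattern. Some genes that this rule names are not reported here. The members and lists were chosen with earlier results of these data known. Background handling, signals, normalization, filters, weights, a replicate block and arrays left out were varied. Sequences came from the array files (mm7) and from RefSeq promoters (GRCm38.p6). Whether a probe lies in coding or untranslated sequence was not looked up here.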

Additional observations from a re-analysis of the deposited data

Results flagged for a closer look

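In 6 cases a level on a single array lay far from the other 3 of its group, by the share of the group's range that the gap takes up. WT replicate 3 at 80 days was high for Tyrobp (0.878 of the range), Ptprc (0.926), Aif1 (0.871) and both Trem2 probes (0.843 and 0.982). SOD1G93A replicate 4 at 80 days was high for Cd68 (0.835). Chance gives such a gap in about 1 of 20 groups, and the 9 genes correlate across arrays, so these are not 6 separate events. The cause was not tested.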

How the results depend on the processing

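No gene of the 9 was called in either genotype comparison under any alternative other than leaving out single arrays, which gave 0 to 2 genes at 40 days and 0 to 1 at 80 days. The difference of Cx3cr1 between genotypes at 80 days, 0.028, became -0.221 and passed without SOD1G93A replicate 4 (up to 0.16 with other single arrays left out), and its difference with age in SOD1G93A became -0.215 without that array or without both high arrays (up to 0.17 with other single arrays left out). The cause was not tested. For age in SOD1G93A, 1 gene passed with local backgrounds kept as deposited (2492 of 21507 probes passed), 1 with Cy3 alone (2644) and 1 with probes of a gene averaged (3701). This was Trem2 in all 3 cases. Without both arrays, left out together after their values were seen, 2 genes passed (4107 probes). With single arrays left out 0 to 3 genes passed (2676 to 3910 probes).

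Counts over all probes moved more. At 40 days 953 probes became 246 with backgrounds kept, 1615 with processed signals, 559 with Cy3 alone, 538 with the authors' values, 1881 with no filter and 715 to 1894 with single arrays left out, 1894 being without WT replicate 4. At 80 days 1481 became 2412 with no filter, 2378 with array weights and 974 to 1846 with single arrays left out, 974 being without SOD1G93A replicate 3. For the interaction 1466 became 797 with backgrounds kept and 2459 with no filter, and for age in WT 3289 became 5004 with no filter. Of the related lists, 15 genes at 40 days became 4 with backgrounds kept, 8 with median centring, 8 with the authors' values, 5 with the spread of 16 arrays and 11 to 27 with single arrays left out. At 80 days 6 became 2 with processed signals and 1 to 13 with single arrays left out, 3 being without WT replicate 1 or SOD1G93A replicate 2.

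Deviations of same-numbered arrays, which share a slide, correlated at -0.067 to 0.12 at 40 days and 0.0072 to 0.20 at 80 days. These values cannot show whether such arrays share anything more. With the replicate block 0 genes of the 9 passed at 40 days and 0 at 80 days, and 959 and 1689 probes were called. The number of arrays and the low Cy3 signal of Cd68, Itgam and Ptprc limit these values.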
